A study of Mus musculus with 18 samples.

Results

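The distribution of H3K36me2 over genes and intergenic DNA was compared between E14 mouse embryonic stem cells treated with an EZH2 inhibitor and cells given its solvent. The comparison used 4 of the 18 libraries of the series, namely the 2 quantitative H3K36me2 libraries from inhibitor-treated cells and the 2 from DMSO-treated cells. E14 is a pluripotent line, and all cells were kept in 2i/LIF medium, which holds them undifferentiated through the cytokine LIF together with MEK and GSK3 inhibition, with amino acids of light, medium or heavy isotope mass. The inhibitor arm received EPZ6438 at 10 µM for 7 days, and the control arm received the same volume of DMSO for 7 days. Chromatin of both arms carried 0.05% Drosophila S2 chromatin as a spike-in. Every library came from 1 cell line, and nothing in the labels says that the 2 replicates of an arm were separate cultures, so the tests measure the spread between these libraries, which may be technical. A level is an average over all cells of a sample, so fewer cells with the mark and less of it per cell cannot be told apart.

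EZH2 is the catalytic subunit of PRC2, the complex that methylates lysine 27 of histone H3 and keeps developmental genes silent in stem cells. H3K36me2 is placed mainly by NSD1, NSD2 and NSD3 in wide domains over active genes and the intergenic DNA around them, whereas SETD2, travelling with elongating RNA polymerase II, converts H3K36 over transcribed bodies to H3K36me3. H3K36 methylation on a histone tail impedes PRC2, so the 2 marks tend to occupy different tails, and removal of H3K27 methylation is a direct way to ask how far H3K36me2 depends on it.

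The 4 libraries held 83.0 and 49.7 M reads (M, mega) in autosomal windows in the DMSO arm and 110 and 54.4 M in the inhibitor arm. As a check of the treatment, H3K27me3 in the libraries labelled with the same 2 treatments averaged 51.3 and 37.6 spike-in-scaled reads per 1 kb window after DMSO and 0.0959 and 0.0702 after the inhibitor. Untreated H3K36me3 over gene bodies, read in place of RNA, was high at 7 of 7 measured stem cell markers (4.47 to 7.83 times the autosomal mean, from Esrrb to Pou5f1). It was 0.646 to 1.55 at 5 primitive endoderm markers, 1.07 to 2.28 at the trophoblast markers Cdx2, Elf5 and Gata3, 5.45 at the trophoblast marker Tfap2c, 0.264 to 2.01 at 5 fibroblast markers, and 0.422 and 1.75 at the primed epiblast markers Fgf5 and Otx2. Chromosomes 3, 5, 14 and 16 differed between replicates 1 and 2 in the same direction in both arms. Chromosome 5, for example, stood at 1.12 and 1.23 times the autosomal mean after DMSO and at 1.10 and 1.25 after the inhibitor.

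Levels below are mean reads per 1 kb window divided by the library's mean over all autosomal windows, so 1 is the average of the autosomes and the spike-in factor cancels. Differences are log2(level + 0.05), inhibitor minus DMSO, and a share that falls need not be a fall in amount. Promoters with large differences are shown first. The 250 bases before the start of 2 promoters with higher H3K36me2 after the inhibitor and of 2 with lower H3K36me2 are shown, 5′ to 3′ in the direction of the gene, with each CG in capitals, from the RefSeq promoter table for GRCm38.p6. They were chosen after their values were seen. Grxcr1 (chr5:68031585-68031834, plus strand) and Pifo (chr3:106014647-106014896, minus strand) were higher, and Skor1 (chr9:63148962-63149211, minus strand) and Lrig2 (chr3:104511919-104512168, minus strand) were lower.
Grxcr1: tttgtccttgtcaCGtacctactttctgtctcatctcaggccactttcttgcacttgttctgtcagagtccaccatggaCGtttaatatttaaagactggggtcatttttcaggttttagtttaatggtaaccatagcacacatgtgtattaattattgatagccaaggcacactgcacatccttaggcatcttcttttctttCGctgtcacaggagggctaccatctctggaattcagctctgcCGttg
Pifo: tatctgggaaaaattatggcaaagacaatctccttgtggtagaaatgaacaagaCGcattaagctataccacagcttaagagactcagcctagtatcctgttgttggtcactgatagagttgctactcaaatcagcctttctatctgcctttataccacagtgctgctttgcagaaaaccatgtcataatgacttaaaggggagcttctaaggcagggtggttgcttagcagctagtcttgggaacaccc
Skor1: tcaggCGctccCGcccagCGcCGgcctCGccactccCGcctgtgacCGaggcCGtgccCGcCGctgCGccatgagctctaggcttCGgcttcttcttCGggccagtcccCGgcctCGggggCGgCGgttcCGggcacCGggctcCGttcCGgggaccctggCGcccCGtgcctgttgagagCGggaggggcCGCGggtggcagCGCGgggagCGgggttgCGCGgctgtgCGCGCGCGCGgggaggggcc
Lrig2: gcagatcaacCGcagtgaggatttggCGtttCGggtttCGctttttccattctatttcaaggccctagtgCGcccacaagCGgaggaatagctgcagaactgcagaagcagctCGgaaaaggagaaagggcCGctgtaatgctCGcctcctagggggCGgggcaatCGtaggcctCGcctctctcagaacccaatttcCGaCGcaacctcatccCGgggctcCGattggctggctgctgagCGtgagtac
Grxcr1 had 4 CG dinucleotides in this window and Pifo had 1, whereas Skor1 had 36 and Lrig2 had 17. Over 16456 promoters of the same length the median was 10 CG and the median GC content 55.6%, and 93.0% held at least 1 CG.

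Genes held a smaller share of the reads, and intergenic DNA a larger one, in both inhibitor libraries than in both DMSO libraries. Windows in protein-coding gene bodies stood at 1.23 and 1.27 times the autosomal mean after DMSO and at 1.19 and 1.23 after the inhibitor. Windows in intergenic blocks, defined as stretches of at least 10 kb that touch no annotated gene, stood at 0.759 and 0.739 after DMSO and at 0.803 and 0.772 after the inhibitor. Windows within 1 kb of a transcription start had the widest gap, at 1.37 and 1.39 after DMSO and 1.19 and 1.28 after the inhibitor. In none of these 3 classes did the arms overlap. The log2 ratio of bodies to blocks was 0.70 and 0.78 after DMSO and 0.57 and 0.67 after the inhibitor, a difference of -0.12, and the log2 ratio of promoters to bodies was 0.15 and 0.13 against 0.00 and 0.06, a difference of -0.11. Each difference gave p = 0.333 in an exact two-sided permutation test, the smallest p that 2 against 2 libraries allow. In the 2 untreated libraries, which had no spike-in, the body-to-block ratio was 0.79 and 0.67 and the promoter-to-body ratio 0.25 and 0.10, so untreated replicate 2 lay at the inhibitor's level for the first ratio and between the arms for the second. Without inhibitor replicate 1 the body-to-block difference was -0.07. With the median over features in place of the mean over windows, the arms overlapped for both ratios (body to block 0.56 and 0.75 after DMSO against 0.30 and 0.60, promoter to body -0.19 and -0.31 against -0.28 and -0.34).

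On the deposited spike-in scale the 4 libraries averaged 340 and 225 scaled reads per window after DMSO and 425 and 238 after the inhibitor, so replicates of an arm differed more than the arms did (difference 0.20 on the log2 scale, exact permutation p = 0.667). Leaving out DMSO replicate 2 gave -0.10 and leaving out inhibitor replicate 1 gave -0.21, against 0.50 when DMSO replicate 1 and 0.62 when inhibitor replicate 2 was left out. Up to the pseudocount, which makes it smaller at low levels, this mean difference of 0.20 is the shift between both scales, so small falls in share need not be falls on the spike-in scale. Without a replicate block no feature was called on that scale, where 97 bodies, 85 promoters and 26 blocks had an unadjusted p under 0.05.

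Gene bodies were then tested one by one with limma without a replicate block, a choice on which the counts depend, and 0 of 16625 passed an adjusted p of 0.05 in either direction, although the raw p lay under 0.05 for 3162. limma-voom, run on recovered reads, also called 0, with 3357 raw p-values under 0.05. Promoters gave the same count, 0 of 15460, with 2547 raw p-values under 0.05 and 2933 by limma-voom. A replicate block, which the labels do not state, gave 1946 bodies higher and 6220 lower, and 174 promoters higher and 467 lower. As a description, 15.6% of all bodies were higher in both inhibitor libraries than in both DMSO libraries and 38.7% were lower, and for promoters these shares were 10.3% and 39.9%. The median body differed by -0.13 and the median promoter by -0.17. Without a replicate block, 4015 of 17906 intergenic blocks (22.4%) rose and 1049 (5.86%) fell at an adjusted p under 0.05 in limma. Of the blocks, 39.9% were higher and 27.6% lower without overlap, and the median block differed by 0.04. Of all called blocks 79.3% had risen, but with features centred on their median rather than on the library mean this was 50.1%, at 3265 rises and 3253 falls. Single libraries moved the smaller counts. Falling blocks numbered 218 without DMSO replicate 1, 547 without DMSO replicate 2 and 1599 without inhibitor replicate 1, and without DMSO replicate 1 47 promoters were called higher and 5 lower, against 6 higher without DMSO replicate 2.

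The level of H3K36me3 in untreated cells, a measure independent of the treated libraries, ordered these differences. Quintiles by untreated H3K36me2 ordered them too, with medians from lowest to highest of 0.07, -0.11, -0.14, -0.16 and -0.20 over bodies. Over blocks these medians were 0.38, 0.25, 0.09, -0.06 and -0.18, so the orders by the 2 marks cannot be told apart. In the quintile of bodies with the least H3K36me3 the level was 0.649 and 0.630 after DMSO and 0.761 and 0.716 after the inhibitor, and 61.0% of these bodies were higher without overlap against 6.17% lower. The second quintile stood at 1.75 and 1.70 after DMSO and 1.67 and 1.66 after the inhibitor. In the middle quintile the level was 1.99 and 1.98 after DMSO and 1.71 and 1.80 after the inhibitor, and 72.3% of bodies were lower without overlap. From the lowest to the highest quintile the median difference was 0.22, -0.06, -0.17, -0.20 and -0.20. In the highest quintile replicates diverged (1.54 and 1.96 after DMSO, 1.26 and 1.80 after the inhibitor), the arms overlapped, and only 18.3% of bodies were lower without overlap. The untreated libraries stood at 1.57 and 1.35 there.

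Promoters followed the same order more weakly, with medians of 0.11, -0.18, -0.20, -0.21 and -0.20. Blocks showed the widest range, with medians of 0.40, 0.24, 0.07, -0.08 and -0.17. In the lowest quintile of blocks the level was 0.224 and 0.220 after DMSO and 0.305 and 0.299 after the inhibitor, and 56.6% of blocks rose and 0.363% fell. In the highest quintile it was 2.33 and 2.28 after DMSO and 2.04 and 2.06 after the inhibitor, and 0.0559% rose and 20.6% fell.

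**Figure D1:**
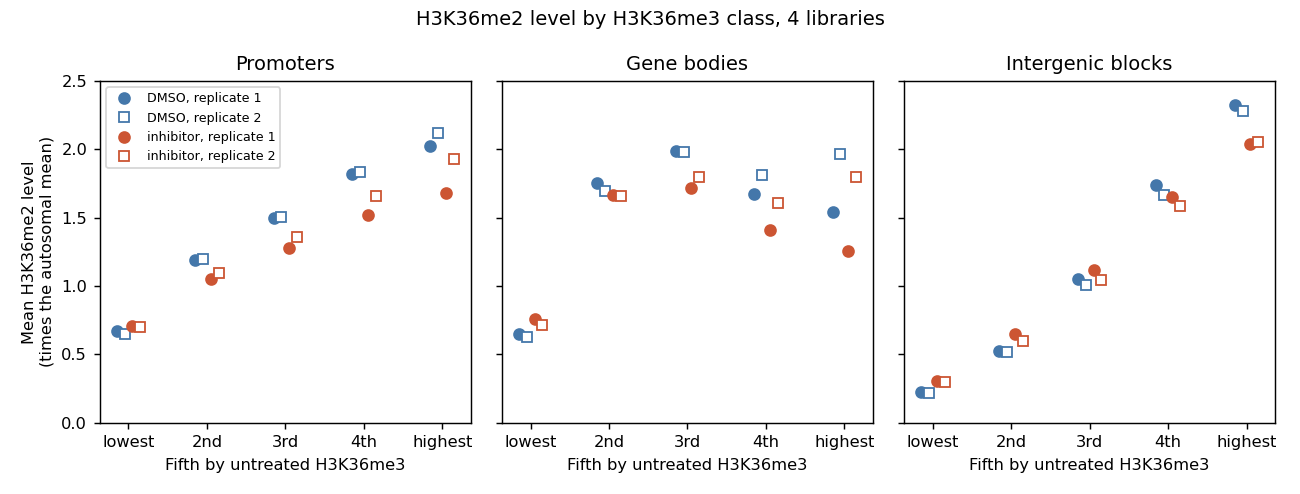
Mean H3K36me2 level (vertical axis, times the autosomal mean) of promoters, gene bodies and intergenic blocks in quintiles by untreated H3K36me3 (horizontal axis), with 1 point per library. In the lowest quintile of blocks both inhibitor libraries (0.305 and 0.299) lie above both DMSO libraries (0.224 and 0.220), in the highest quintile they lie below, and in the highest quintile of bodies the replicates differ more than the arms.

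Across 7522 genes of at least 20 kb, profiles from 20 kb before the start to 20 kb after the end showed where within a gene the arms parted. In the tercile of genes with the least H3K36me3 (n = 2507) the middle of the body stood at 0.909 and 0.872 after DMSO and 0.991 and 0.942 after the inhibitor, while the first bin of the body stood at 1.03 and 1.01 against 1.06 and 1.04. In the middle tercile (n = 2507) the middle of the body was 1.77 and 1.73 after DMSO and 1.58 and 1.61 after the inhibitor. In the high tercile (n = 2508) every library had a trough over the body. Its level at mid-body was 1.51 and 1.75 after DMSO and 1.26 and 1.58 after the inhibitor, so inhibitor replicate 2 lay above DMSO replicate 1 there.

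**Figure D2:**
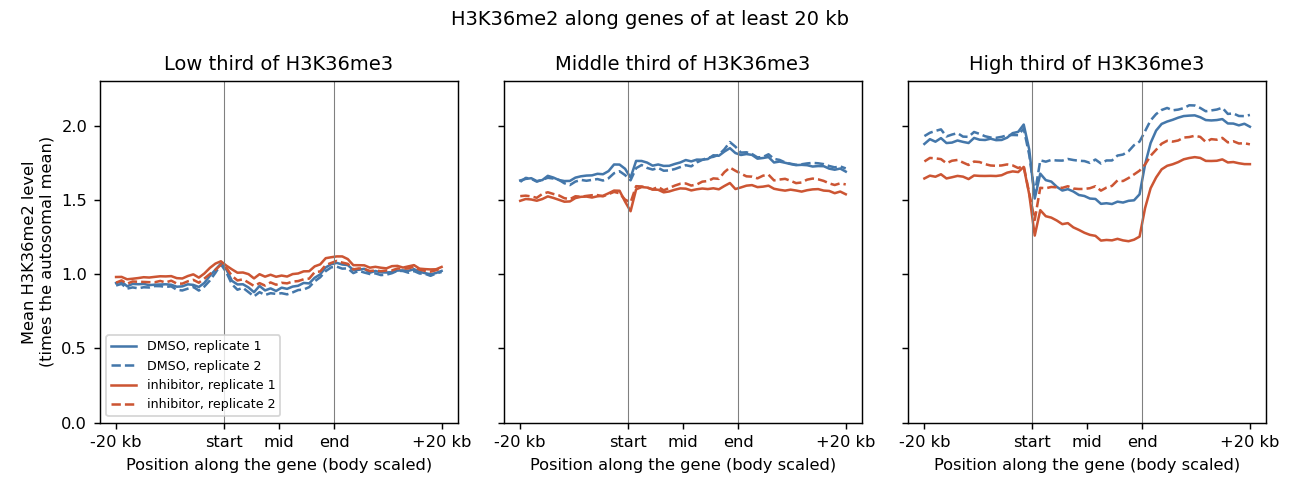
Mean H3K36me2 level (vertical axis, times the autosomal mean) along genes of at least 20 kb, with the body scaled between start and end and 20 kb of flank on each side, in terciles by untreated H3K36me3 and with 1 line per library. At mid-body the inhibitor lines lie above the DMSO lines in the low tercile (0.991 and 0.942 against 0.909 and 0.872) and below them in the middle tercile (1.58 and 1.61 against 1.77 and 1.73), and in the high tercile replicate 2 exceeds replicate 1 within each arm over the body.

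Very long genes were higher in the inhibitor libraries. Bodies of 500 kb or more (n = 215) stood at 0.719 and 0.719 after DMSO and at 0.835 and 0.800 after the inhibitor, and 74.0% were higher without overlap, against 11.9% of bodies of 10 to 50 kb. A list of 26 very long neuronal genes had 25 higher without overlap and 0 lower, beside 15.6% and 38.7% over all bodies. The list was chosen with earlier results of these data known, so its count is a description and no independent test. Its median difference was 0.46, against -0.13 over all bodies. Bodies of 500 kb or more had a median of 0.29 and those in the lowest quintile of H3K36me3 one of 0.22. In the list 0 bodies passed the adjusted threshold. Dpp10, an auxiliary subunit of Kv4 potassium channels on chromosome 1, stood at 0.179 and 0.164 after DMSO and 0.315 and 0.309 after the inhibitor (0.71 in log2, SE 0.06, limma adjusted p = 0.0903). As a share of chromosome 1, an alternative added after the data were seen, the Dpp10 difference was 0.70 and passed (limma adjusted p = 0.0456). Both inhibitor values exceeded both DMSO values by several times the spread within an arm, which rests on 2 libraries.

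Pcdh9, a protocadherin of neuronal adhesion, differed by 0.67. Dlg2, a postsynaptic scaffold protein, stood at 0.223 and 0.210 after DMSO and 0.375 and 0.368 after the inhibitor. Nrxn3, a presynaptic adhesion receptor, stood at 0.238 and 0.246 after DMSO and 0.398 and 0.407 after the inhibitor, and Erbb4, the neuregulin receptor kinase, at 0.136 and 0.130 against 0.238 and 0.229. Kcnip4, a Kv4 channel partner and the member nearest the median of the list, stood at 0.246 and 0.243 against 0.375 and 0.334. The exception was Magi2, a synaptic scaffold gene on chromosome 5, where the arms overlapped at 0.506 and 0.445 after DMSO and 0.623 and 0.445 after the inhibitor. The list was low in H3K36me3, with a median of 0.136 times the autosomal mean in untreated cells. At their promoters, 17 of the 26 genes were tested. Of these 4 were higher and 2 lower without overlap, beside 10.3% and 39.9% over all promoters, and the median difference was 0.08. Kcnip4 had the largest promoter difference of the list (1.06), at 0.327 and 0.322 after DMSO and 0.583 and 0.906 after the inhibitor. Such low promoter levels rest on few reads, and 0 promoters of the list were called.

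**Figure D3:**
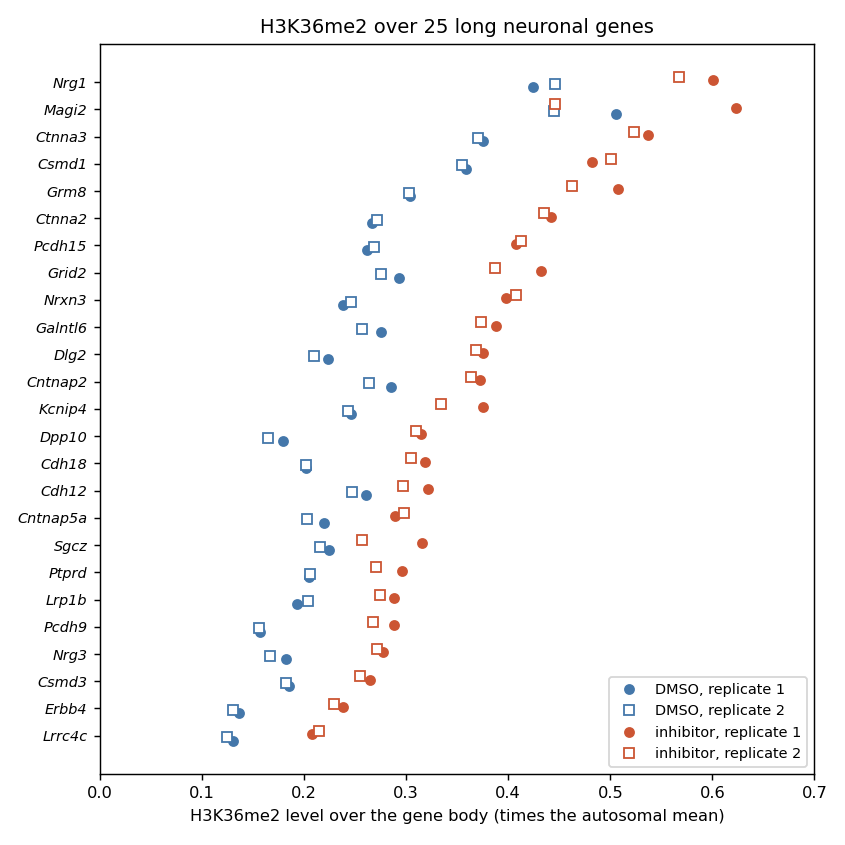
H3K36me2 level over the body (horizontal axis, times the autosomal mean) of 25 of the 26 long neuronal genes (vertical axis), with 1 point per library. In every gene shown except Magi2 both inhibitor points lie to the right of both DMSO points.

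Bodies of sensory receptor genes had medians above 0 too, below that of the long neuronal bodies. The filter takes the mean over all 4 libraries, so members with few reads could pass through the inhibitor arm alone, and the counts describe only those that passed. Of 92 tested olfactory receptor bodies, from 98 measured, 43 were higher and 3 lower without overlap, with a median of 0.26. Olfr183 had the largest difference among them, at 0.125 and 0.158 after DMSO and 0.368 and 0.381 after the inhibitor (1.15). Olfr741 went the other way, at 0.286 and 0.293 against 0.236 and 0.210 (-0.31). Of their promoters 738 of 938 passed the filter, and no count of differences is given for them. Vomeronasal receptors, the pheromone receptors, had 62 higher and 6 lower of 114 tested bodies (129 measured, median 0.23). Both families were low in untreated H3K36me3, with body medians of 0.134 (olfactory) and 0.0946 (vomeronasal). Of all bodies in the lowest H3K36me3 quintile 61.0% were higher and 6.17% lower without overlap (median 0.22). The direction is thus not particular to receptor genes. Over all bodies the shares were 15.6% and 38.7%. Only 109 of 320 vomeronasal promoters passed the filter, and no count is given for these either. Vmn2r9 stood at 0.185 and 0.0835 after DMSO and 0.339 and 0.297 after the inhibitor. These receptors come in near-identical copies that the counting may have split, so single members are uncertain. Keratin genes, which encode epithelial filaments, lie in dense clusters with high H3K27me3 in untreated cells (median 5.41). Of 45 keratin bodies 25 were higher and 5 lower without overlap (median 0.13), and of 35 keratin promoters 19 were higher and 3 lower (median 0.21). Over all promoters the shares were 10.3% and 39.9%. Krt31 stood at 0.910 and 0.924 after DMSO and 1.24 and 1.36 after the inhibitor, and the Krt82 promoter at 1.23 and 1.19 against 1.70 and 2.11. Krt10 went the other way, at 0.772 and 0.792 against 0.635 and 0.589.

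Classical Polycomb targets went in both directions. As a reference for these and the later lists, 15.6% of all bodies were higher and 38.7% lower without overlap. Over all promoters the shares were 10.3% and 39.9%. Of 18 Hox bodies 6 were higher and 4 lower without overlap (median -0.03), and of 22 Hox promoters 6 were higher and 4 lower (median 0.01), at a median untreated H3K27me3 of 8.24 and 8.98 times the autosomal mean. Hoxd13 stood at 0.752 and 0.759 after DMSO and 0.987 and 0.906 after the inhibitor, whereas Hoxc13 stood at 1.51 and 1.49 against 1.25 and 1.03. Of 35 bodies of other developmental transcription factors 10 were higher and 16 lower (median -0.10), and of their 35 promoters 1 was higher and 10 lower (median -0.09). Foxc1, a forkhead factor of mesoderm, had the largest positive difference (0.66) at 0.683 and 0.561 after DMSO and 1.04 and 0.982 after the inhibitor. Neurod1, a proneural factor, had the largest negative one (-0.71) at 1.29 and 1.72 against 0.919 and 0.861. Of 10 mesendoderm regulator bodies 2 were higher and 5 lower (median -0.17), with Lhx1, a head organiser factor, at 1.72 and 1.61 against 1.08 and 1.20. Their 10 promoters had 0 higher and 4 lower (median -0.16).

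Over all promoters, coverage by an untreated H3K27me3 peak separated the medians little. Promoters without such a peak (n = 9912) had a median of -0.19 and promoters fully covered (n = 4813) a median of -0.12. CG content separated them more, mainly at its lowest quintile. The quintile with 0 to 3 CG in the 250 bases before the start stood at 1.26 and 1.25 after DMSO and 1.25 and 1.26 after the inhibitor (median difference 0.08), and the quintile with 22 to 56 CG stood at 1.18 and 1.23 against 0.951 and 1.10 (median -0.22). The 3 quintiles between them had medians of -0.12, -0.23 and -0.24. Median untreated H3K36me3 was 0.446 in the lowest quintile of CG and 1.13, 1.19, 1.19 and 1.24 in the others. Untreated H3K36me2 was lowest there too (0.814, against 1.76, 1.51, 1.33 and 1.14). CG content and a low level of these marks cannot be told apart here. Grxcr1, with 4 CG, lay in the second quintile, whose median was below 0.

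Naive pluripotency genes were high in untreated H3K36me3 (median over bodies 6.42). Of 13 naive pluripotency bodies 0 were higher and 2 lower without overlap (median -0.14, near the -0.13 of all bodies). For comparison, 38.7% of all bodies and 18.3% of bodies in the highest quintile of H3K36me3 were lower. Esrrb, an orphan nuclear receptor of the naive network, stood at 2.24 and 2.28 after DMSO and 1.93 and 2.15 after the inhibitor, and Tcl1, an AKT coactivator, at 2.71 and 2.75 against 2.10 and 2.24. Nanog, a homeodomain factor of self-renewal, overlapped at 0.772 and 1.27 against 0.830 and 1.30, with replicate 2 above replicate 1 in both arms. The same split by replicate number was seen at Tfcp2l1 (0.805 and 1.27 against 0.647 and 1.23), Zfp42 (0.283 and 0.635 against 0.241 and 0.618), Klf4 (0.460 and 0.829 against 0.471 and 0.691), Klf5 (0.611 and 0.957 against 0.622 and 0.899) and Tbx3 (0.581 and 0.908 against 0.497 and 0.853). Prdm14, Nr5a2, Stat3, Fgf4 and Tdgf1 also overlapped, with differences of -0.19, -0.15, -0.28, -0.01 and -0.02. Of the 12 promoters of this list 0 were higher and 4 lower (median -0.03).

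In the core stem cell list, 1 of 5 bodies was lower (median 0.00) and 3 of 4 promoters were lower (median -0.31). The promoter of Lin28a, an RNA-binding protein that blocks let-7 maturation, stood at 1.68 and 1.98 after DMSO and 1.10 and 1.04 after the inhibitor (-0.74, SE 0.20, limma adjusted p = 0.148). The Pou5f1 body overlapped at 0.853 and 1.09 against 0.830 and 1.31. Of 11 formative and primed bodies 1 was higher and 5 lower (median -0.10), and of their 9 promoters 0 were higher and 4 lower (median -0.27). Dusp6, an ERK phosphatase, stood at 1.11 and 1.32 against 0.890 and 0.936.

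The bodies of all measured members of the H3K36 methyltransferase and demethylase list and of the PRC2 list were examined. Among the 11 bodies of the first list 1 was higher and 3 lower without overlap (median -0.13). Of the writers, Nsd3 was lower at 1.52 and 1.57 after DMSO and 1.36 and 1.4 after the inhibitor, and Ash1l was lower at 0.953 and 1.04 against 0.881 and 0.844. Nsd1 (0.513 and 0.772 against 0.541 and 0.713), Nsd2 (0.947 and 1.24 against 0.895 and 1.16) and Setd2 (0.795 and 0.910 against 0.70 and 0.848) overlapped. Of the Kdm genes on the list, Kdm2b, which also recruits a PRC1 variant to CpG islands, was lower (2.29 and 2.3 against 1.98 and 2.10). Kdm4d, a KDM4 relative that is not itself taken as an H3K36 demethylase, was higher (0.656 and 0.568 against 0.772 and 0.692). Kdm2a, Kdm4a, Kdm4b and Kdm4c overlapped, with differences of -0.08, -0.26, -0.17 and -0.07. Of 5 tested promoters of this list 0 were higher and 4 lower (median -0.23).

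Among 10 PRC2 bodies 0 were higher and 3 lower (median -0.14). Ezh1, the second catalytic subunit, was lower at 1.90 and 2.05 after DMSO and 1.5 and 1.72 after the inhibitor. Phf19, which reads H3K36 methylation, was lower at 2.77 and 2.80 against 2.4 and 2.48, and Jarid2, which helps PRC2 bind chromatin, at 0.991 and 1.08 against 0.840 and 0.948. The drug's target Ezh2 overlapped at 0.509 and 0.574 against 0.495 and 0.567, as did Eed (0.514 and 0.786 against 0.501 and 0.703) and Suz12 (0.289 and 0.512 against 0.324 and 0.528). Rbbp4, Mtf2, Aebp2 and Phf1 overlapped too, with differences of 0.03, 0.05, -0.22 and -0.18. At the 10 PRC2 promoters 1 was higher and 6 lower (median -0.25), and 0 were called. The Ezh2 promoter stood at 0.490 and 0.569 against 0.359 and 0.295. These are low levels over 1 kb on each side of the start, so they rest on few reads.

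The remaining lists had body medians between -0.15 and 0.03. Their counts stand beside 15.6% higher and 38.7% lower over all bodies, and 10.3% and 39.9% over all promoters. PRC1 subunits had 0 higher and 5 lower of 17 bodies (median -0.12) and 0 higher and 8 lower of 13 promoters (median -0.14). DNA methylation and Tet genes had 0 higher and 4 lower of 9 bodies (median -0.15) and 1 higher and 5 lower of 9 promoters (median -0.21). The Dnmt3b promoter stood at 3.16 and 3.24 after DMSO and 1.88 and 2.65 after the inhibitor. Glycolysis genes had 0 higher and 2 lower of 12 bodies (median -0.10) and 0 higher and 4 lower of 13 promoters (median -0.24). Ribosomal protein genes had 0 higher and 1 lower of 24 bodies (median -0.15) and 3 higher and 19 lower of 57 promoters (median -0.18). Germline genes had 2 higher and 5 lower of 16 bodies (median 0.03) and 1 higher and 4 lower of 14 promoters (median -0.13). Imprinted genes had 1 higher and 10 lower of 18 bodies (median -0.12) and 0 higher and 4 lower of 19 promoters (median -0.11), with Igf2r at 1.89 and 1.98 against 1.4 and 1.75. Cyclin-dependent kinase inhibitors had 1 higher and 1 lower of 5 bodies (median -0.02) and 0 higher and 3 lower of 6 promoters (median -0.27).

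Since no single body or promoter passed the threshold without a replicate block, the largest non-overlapping differences are given as descriptions. They were chosen after their values were seen. Bodies had to hold at least 10 windows and 100 window reads in every library, so shorter bodies such as Olfr183, Vmn2r9 and Neurod1 fall outside. Within these limits the largest positive differences were at genes with untreated H3K36me3 of 0.0982 to 0.209 times the autosomal mean. Serpinb11 and Serpinb7, neighbouring genes for serine protease inhibitors on chromosome 1, stood at 0.333 and 0.341 after DMSO against 0.652 and 0.709, and at 0.187 and 0.193 against 0.397 and 0.4. Adgrl4, an endothelial adhesion receptor (chr3:151437882-151545081), stood at 0.239 and 0.197 against 0.445 and 0.430 (0.87, SE 0.11, limma adjusted p = 0.115). Epyc, a cartilage proteoglycan, stood at 0.144 and 0.143 against 0.284 and 0.311. The others were 1700017N19Rik, Dthd1, Gm6614 and Lipi, with differences of 0.88, 0.85, 0.83 and 0.83.

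Among bodies within these limits whose mean over the 4 libraries was at least the autosomal mean, the largest positive differences were at Lrrc55, Slc4a4, Syce1l, Nwd2 and Bmp3. The inhibitor values count in that mean, and Slc4a4, Nwd2 and Bmp3 were below 1 in both DMSO libraries. Slc4a4, a sodium bicarbonate cotransporter (chr5:88793858-89239656), stood at 0.745 and 0.980 after DMSO and 1.22 and 1.5 after the inhibitor over 352 windows (0.63, SE 0.16, limma adjusted p = 0.213). Bmp3, a bone morphogenetic protein, stood at 0.789 and 0.877 against 1.27 and 1.24. Among all bodies within the limits the largest negative differences were at Phf11c (-0.65), Skor1 (-0.55), Zfp273 (-0.53), Slc4a2 (-0.52), Slc13a5 (-0.49), Phf11d (-0.49), Abhd4 (-0.49) and Etnk2 (-0.49). Phf11c and Phf11d are neighbouring copies of 1 family, so their reads may be shared. Slc4a2, an anion exchanger, stood at 2.58 and 2.28 against 1.70 and 1.66, and Etnk2, an ethanolamine kinase, at 3.40 and 3.34 against 2.22 and 2.58.

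Among promoters with at least 20 window reads in every library, those with the largest differences rested on 2 windows each. Grxcr1, a gene of the sensory hair bundle, held 45 and 21 reads in the DMSO arm and 115 and 60 in the inhibitor arm, at levels of 0.668 and 0.520 against 1.29 and 1.36 (1.10, SE 0.23, limma adjusted p = 0.135). Pifo, a gene of primary cilium disassembly, stood at 0.386 and 0.520 against 1.02 and 0.974, and Prg3, Cd200r3 and Ndst3 differed by 1.19, 1.08 and 1.01. On the other side Skor1, a SKI-family corepressor, held 73 and 55 reads in the DMSO arm and 48 and 21 in the inhibitor arm, at levels of 1.08 and 1.36 against 0.538 and 0.476 (-1.19, SE 0.25, adjusted p = 0.135). Nxph1, a neurexin ligand, stood at 1.54 and 1.66 against 0.774 and 0.680, and Bsx, a hypothalamic homeobox gene, at 1.4 and 1.49 against 0.740 and 0.680. Lrig2 and Mkln1 differed by -1.04 and -0.93. As a share of their own chromosome, an alternative added after the data were seen, the promoters of Grxcr1, Prg3, Skor1 and Nxph1 passed (limma adjusted p = 0.0322, 0.0303, 0.0352 and 0.0291). The promoter of Vmn1r33, a vomeronasal receptor gene, held 12 and 2 reads in the DMSO arm and 41 and 18 in the inhibitor arm, so it reached 10 mean reads through the inhibitor arm alone, and it is not counted with them. Skor1, Nxph1 and Bsx were also high in untreated H3K27me3 (16.8, 11.3 and 7.62 times the autosomal mean), whereas Lrig2 and Mkln1 were not (0.182 and 0.211). Of the higher promoters, Prg3, Ndst3, Grxcr1 and Pifo were above the autosomal mean in it too (3.89, 2.86, 2.37 and 1.41), and Cd200r3 was not (0.868).

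In the fit without a replicate block calls were made at intergenic blocks, and the longer the block the more often it rose. Of blocks of 10 to 50 kb (n = 12091) 13.0% rose, of 50 to 200 kb (n = 4655) 35.5%, of 200 to 500 kb (n = 972) 66.6% and of 500 kb or more (n = 188) 76.1%. Falls went from 7.16% to 3.85%, 0.309% and 0.532%. Longer blocks also hold more reads, so the power of the test differed between these classes. Untreated H3K36me2 went down with length, with medians of 1.23, 0.69, 0.29 and 0.18, as did untreated H3K36me3 (0.71, 0.42, 0.20 and 0.13). Length and a low level of these marks cannot be told apart here. The median difference, which does not depend on calls, was -0.02, 0.14, 0.34 and 0.37. Blocks of 500 kb or more stood at 0.259 and 0.256 after DMSO and 0.341 and 0.332 after the inhibitor, and at 0.210 and 0.261 in the untreated libraries.

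Within terciles by untreated H3K36me3, blocks with more untreated H3K27me3 had higher differences. Over all blocks this order was absent. From the lowest to the highest quintile of untreated H3K27me3 the median differences were 0.02, 0.17, 0.08, -0.004 and -0.01. In the low tercile of H3K36me3 the median difference was 0.17, 0.38 and 0.44 from low to high H3K27me3. The counts of rises there were 489 of 1990, 1186 of 1989 and 1457 of 1990 blocks. In the middle tercile of H3K36me3 the medians were -0.04, 0.09 and 0.14, and in the high tercile they were -0.19, -0.15 and -0.08, with 467, 321 and 134 falls. Within the low tercile of H3K36me3, the blocks in the high tercile of H3K27me3 stood at 0.432 and 0.432 after DMSO and 0.605 and 0.572 after the inhibitor. Their median untreated H3K27me3 was only 0.723 times the autosomal mean, since terciles by H3K27me3 were drawn within each tercile of H3K36me3. Gene bodies did not follow the order of the blocks within these terciles. Their medians were 0.08, 0.15 and 0.07 in the low tercile of H3K36me3 and -0.15, -0.20 and -0.24 in the high tercile.

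**Figure D4:**
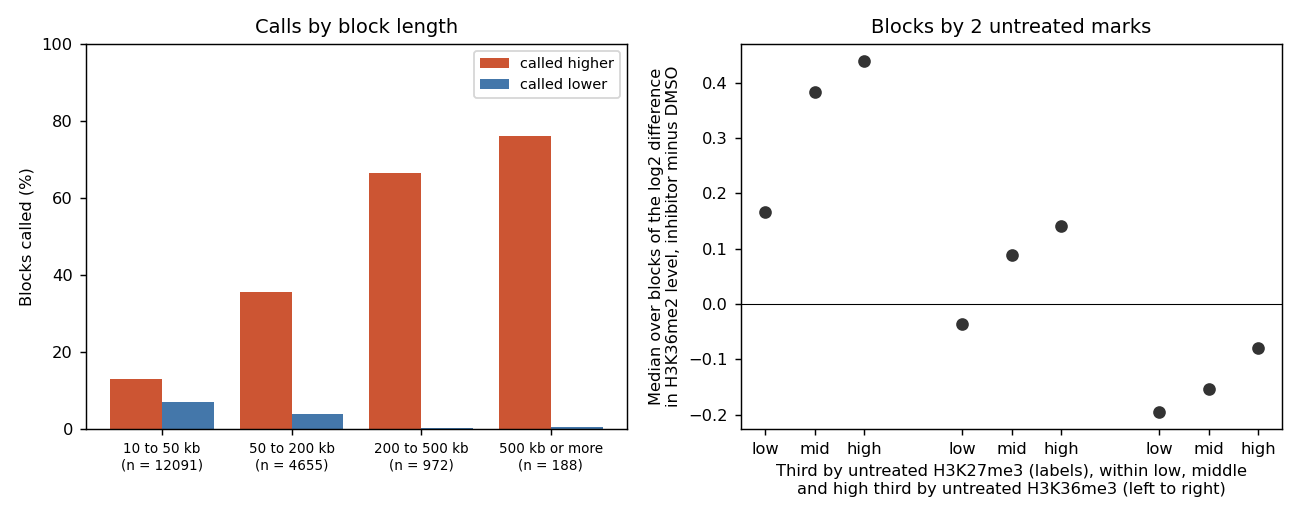
Left, percentage of intergenic blocks called higher or lower after the inhibitor (vertical axis) by block length (horizontal axis). Right, median over blocks of the log2 difference in H3K36me2 level (vertical axis) in terciles by untreated H3K27me3 within terciles by untreated H3K36me3 (horizontal axis). The percentage called higher goes from 13.0% to 76.1% with length, and the median goes from 0.17 to 0.44 with H3K27me3 in the low tercile of H3K36me3.

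Among blocks with at least 100 window reads in every library, the largest rise was between Gbe1 and Robo1 (chr16:70625001-70665000), at 0.151 and 0.168 after DMSO and 0.331 and 0.379 after the inhibitor (0.95, SE 0.12, limma adjusted p = 0.00176). Robo1 encodes an axon guidance receptor. The next were between Trhde and Tph2 (chr10:114918001-114947000), at 0.255 and 0.219 against 0.499 and 0.480, and between 4930519L02Rik and Lmo4 (chr3:143713001-143743000), at 0.384 and 0.398 against 0.870 and 0.692. Blocks of at least 200 kb are added after their values were seen. Among them the block between Nudt12 and Efna5, an ephrin gene (chr17:59226001-59569000), rose from 0.145 and 0.125 to 0.298 and 0.284 (0.89, SE 0.08). The block between Itga1 and Isl1, a motor neuron and heart LIM factor (chr13:115530001-115770000), rose from 0.138 and 0.137 to 0.263 and 0.284. Those between Adgrl3 and Tecrl, Alcam and Zpld1, and Fign and Grb14 rose by 0.80, 0.80 and 0.77. The falls called among blocks of this length numbered 4. The block between Slc22a12 and Rps6ka4 (chr19:6594001-6829000) fell from 1.37 and 1.34 to 1.13 and 1.17 (-0.23). Those before Scaf8 (chr17:2800001-3044000), before Vmn1r2 (chr4:2385001-3103000), and between Gm38656 and Scgb2a2 (chr19:9285001-9557000) differed by -0.42, -0.36 and -0.21. Windows without reads count towards the length of a block.

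The 3 largest falls lay close to the start of their chromosomes, as did the falls on chromosomes 17 and 4 given above. The 3 were the block before Cdk6 (chr5:3002001-3041000), which fell from 0.603 and 0.556 to 0.273 and 0.267 (-0.97, SE 0.10), the block before Alkbh8 (chr9:3039001-3136000), which fell from 0.566 and 0.475 to 0.221 and 0.274 (-0.94), and the block before Gdi2 (chr13:3458001-3478000), which fell from 0.724 and 0.691 to 0.413 and 0.410 (-0.71). Repeats near chromosome starts can draw reads from other copies, and this was not tested for any of these 5. None of the 15 named blocks was called on the spike-in scale without a replicate block. With that block, which the labels do not state, 11 of them were called in the same direction.

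The difference changed sign with distance from H3K36me2 domains. The authors' peaks, called on untreated libraries, took up 67.2% and 66.6% of all reads in the DMSO arm and 60.7% and 61.5% in the inhibitor arm, in 32.0% of windows. Inside peaks the level was 2.10 and 2.08 after DMSO and 1.90 and 1.92 after the inhibitor (-0.13). Up to 5 kb away it was 0.857 and 0.870 against 0.905 and 0.898, and from 6 to 20 kb away 0.740 and 0.770 against 0.823 and 0.822. At 21 to 100 kb it was 0.521 and 0.527 against 0.644 and 0.616 (0.27), and from there to 300 kb 0.329 and 0.330 against 0.457 and 0.437 (0.44). Beyond 300 kb it was 0.177 and 0.176 against 0.259 and 0.259 (0.55). In all 6 distance classes the arms did not overlap, and exact permutation p was 0.333 in each, the smallest possible. In steps of 1 kb outward from peak edges, however, the arms overlapped at every step from 3 to 30 kb. At 10 kb outside they stood at 0.877 and 0.957 after DMSO and 0.913 and 0.978 after the inhibitor (exact permutation p = 0.667). With libraries matched by replicate number, the differences of both pairs were positive at each of these steps. At 10 kb these paired differences were 0.06 and 0.03 in log2. The labels do not state such pairing. The untreated libraries stood at 0.121 and 0.159 beyond 300 kb and at 2.29 and 2.13 in peaks, so inside peaks and beyond 300 kb the DMSO arm lay between them and the inhibitor arm. Reads far from peaks include those precipitated without the mark; no input library was used, and their part in the gradient was not tested.

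**Figure D5:**
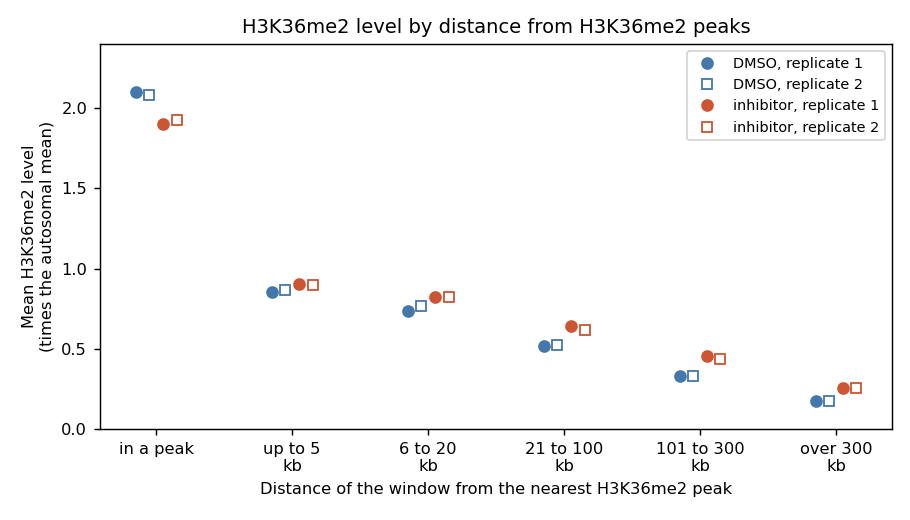
Mean H3K36me2 level (vertical axis, times the autosomal mean) of 1 kb windows by distance from the nearest untreated H3K36me2 peak (horizontal axis), with 1 point per library. Inhibitor points lie below DMSO points in peaks (1.90 and 1.92 against 2.10 and 2.08) and above them in every class outside, up to 0.259 and 0.259 against 0.177 and 0.176 beyond 300 kb.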

How the data were processed

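The deposited tracks hold log2 values in 1 kb windows every 500 bases, without a header. Per the submitters' processing notes, Trim Galore 0.4.2, Bowtie2 2.2.6.2, SICER and the builds mm10 and dm3 were used, with no roles or parameters stated. In the log2 tracks deposited by the authors, raising 2 to each value and subtracting 1 gave a whole read number times a library factor in 100% of windows (tolerance 0.02). That factor (9.52 to 11.1) was taken as the spike-in scale; its derivation is not given in the sources used here. The authors' deposited peak lists carry a score whose scale is not stated and which was not used. Non-overlapping windows on autosomes, empty ones included, were used.

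Genes came from RefSeq for GRCm38.p6 (the assembly mm10 represents): 16927 bodies, 16456 promoters (1 kb on each side of the start) and 18373 intergenic blocks of at least 10 kb, the last named by flanking genes. A start was listed for 16456 of 20661 protein-coding autosomal genes. The first 1 kb was left out of a body, and 3387 bodies of unknown strand were trimmed at both ends. Features of at least 10 mean window reads were tested in R 4.3.3 by limma 3.58.1 (linear fit, empirical Bayes variance trend following read number) on log2(level + 0.05), 2 against 2 libraries with no block, with Benjamini-Hochberg adjustment over each kind of feature. The test was checked on simulated data in which libraries varied independently. Same-numbered libraries here deviated together (r = 0.77 over bodies), and the check does not cover that. Whole-class values were compared by exact permutation of libraries. Count models such as negative binomial fits were not used here.

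Members and gene lists were chosen with earlier results of these data known. Named genes are the largest called changes (bodies 8 and 5, promoters 5, blocks 3 in each direction), each list's extremes and median member, and all members of 3 lists. 1 member of the long neuronal list is counted but not reported here. Since no body or promoter was called, the same rule without the call is shown for them. Alternatives were the spike-in scale, median centring, pseudocounts, filters, prior variances, limma-voom, a replicate block, single libraries left out, and region definitions.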

Additional observations from a re-analysis of the deposited data

Results flagged for a closer look

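Chromosomes X and Y were outside all comparisons, although both held reads in the H3K36me2 libraries. Their counts are given without a test. In the DMSO arm chromosome X had 1371070 and 795336 reads over its windows, and in the inhibitor arm 1938430 and 930748. For chromosome Y these were 20330 and 14236 in the DMSO arm and 23547 and 17086 in the inhibitor arm.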

How the results depend on the processing

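The class ratios kept their sign under every alternative that gave them a value. The mean on the spike-in scale, 0.20, ranged from -0.21 to 0.62 with single libraries left out (-0.10 without DMSO replicate 2, -0.21 without inhibitor replicate 1).

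Calls of bodies and promoters depended on the treatment of replicates. Same-numbered libraries deviated together (r = 0.77 over bodies, 0.18 over promoters and 0.39 over blocks), but with 2 pairs this is no proof of pairing. With a replicate block 1946 bodies were higher and 6220 lower, 174 promoters were higher and 467 lower, and 6055 blocks were higher and 3710 lower. On the spike-in scale with that block the counts were 1614 and 6 bodies, 445 and 22 promoters, and 4060 and 11 blocks. On the spike-in scale without the block 0 blocks were called in either direction, with 26 under an unadjusted p of 0.05.

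The share of the own chromosome, added after the data were seen, gave 43 bodies higher, 9 promoters higher and 6 lower, and 1890 blocks lower. Median centring gave 70 promoters higher and 1 lower and 3253 blocks lower. With 1 prior variance 587 blocks were lower, and among blocks of at least 50 kb 2610 of 5815 were higher and 247 lower. Leaving out single libraries gave 0 to 47 promoters higher and 0 to 5 lower, 3065 to 4613 blocks higher and 218 to 1599 lower; the lone library of an arm was then assumed to vary like the rest. Without DMSO replicate 1 there were 218 falling blocks and without DMSO replicate 2 there were 547. Without inhibitor replicate 1 there were 1599. The causes of these shifts were not tested. The promoter of Grxcr1 held 45 and 21 reads in the DMSO arm, and such numbers limit the precision of named promoters. Over these alternatives the differences of 48 of 103 named bodies and 25 of 85 named promoters, none of them called in the limma test of autosomal shares without a block (some were in alternatives), crossed 0, such as the bodies of Nanog (-0.28 to 0.41) and Pou5f1 (-0.21 to 0.43). The 15 named blocks did not cross 0.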

Other observations

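On chromosome 16 the level was 0.985 and 1.11 times the autosomal mean after DMSO and 1.02 and 1.17 after the inhibitor. On chromosome 3 it was 0.878 and 0.797 after DMSO and 0.943 and 0.822 after the inhibitor, and on chromosome 14 it was 0.795 and 0.731 against 0.812 and 0.725. The quantitative H3K27me3 libraries split by replicate number in the same direction, with chromosome 5 at 1.19 and 1.28 after DMSO and 1.26 and 1.4 after the inhibitor and chromosome 16 at 0.893 and 1.01 against 0.961 and 1.09. The untreated H3K36me2 libraries did not show this split, with chromosome 5 at 1.11 and 1.08 and chromosome 16 at 0.992 and 0.986.

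After the inhibitor the few remaining H3K27me3 reads kept an uneven distribution. Promoters stood at 2.62 and 2.55 times the autosomal mean after DMSO and at 3.06 and 3.66 after the inhibitor, while on the spike-in scale they went from 134 and 95.9 to 0.293 and 0.257 scaled reads per window. The Skor1 promoter, whose H3K36me2 share was lower in both inhibitor libraries, still held 127 and 354 H3K27me3 reads after the inhibitor, against 17 and 68 at Nxph1 and 5 and 26 at Bsx.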
